A study of Mus musculus with 12 samples.

Results

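H3K79me2, dimethylation of lysine 79 of histone H3, was mapped in mouse CD8 T cells by ChIP-seq, the sequencing of DNA recovered with an antibody against the mark, and the regions described here are its shortest peaks in vehicle-treated cells. They were chosen by their width alone: every peak of the DMSO list that spans under 500 bases. The rule took 1356 of the 12578 DMSO peaks (10.8%), out of 17076 peaks in the lists of all 3 treatments. The cells came from male mice that were wild type for both the CreERT2 and the floxed Dot1l allele and heterozygous for OT-I, a transgenic T cell receptor, so no group lacks Dot1l. They were activated through CD3 and CD28 and expanded to day 8 with 0.1% DMSO, with EPZ-5676 or with SGC-0946, 2 inhibitors of DOT1L. The labels give both inhibitor doses as 10 mM, an unusually high unit for cells in culture that is printed here as labelled. The study has 12 libraries, 6 of immunoprecipitated and 6 of input chromatin, with 2 biological replicates per treatment and yeast chromatin added as an external reference. What was analysed is 1 list of broad peaks per treatment, so no value below has a spread between replicates and none has a p-value. Every interval is an exact (Clopper-Pearson) 95% interval that covers the counting of peaks or genes only. All 8 of the T cell marker genes (Cd8a, Cd8b1 and 6 that CD4 T cells share) held a DMSO peak, against 0 of 3 CD4 T cell, 2 of 4 NK cell, 1 of 5 B cell and 0 of 6 myeloid markers, and no marker held a short one. In a longer list of 11 CD4 and regulatory T cell genes, 3 held a DMSO peak, 1 of them short (Cxcr5).

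DOT1L is the methyltransferase that places methyl groups on lysine 79 of histone H3, a residue on the face of the nucleosome core rather than on the histone tail. The mark follows transcription: it is laid down behind the start of active genes, is densest in the early part of the transcribed region and thins out along the gene body, and DOT1L reaches it through partners it shares with elongation complexes, such as the AF9 and ENL proteins. EPZ-5676 (pinometostat) and SGC-0946 both occupy the pocket of DOT1L that binds the methyl donor S-adenosylmethionine. H3K79me2 normally forms broad domains, and peaks this narrow are one extreme of what a caller of broad peaks reports.

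Few short peaks reached a promoter. RefSeq windows of 300 bases (250 before to 50 after a start site, GRCm38.p6) were touched by 20 of the 1297 short peaks on chromosomes with windows (1.54%, 0.944 to 2.37). For comparison, DMSO peaks from 500 to under 1000 bases are called middle-width here, those of 1000 bases or more wide, and both together wider. The same share was 3.49% for middle-width and 31.2% for wide peaks, which also cover more sequence. Per megabase of peak, short peaks touched 43.1 windows, middle-width peaks 51.9 and wide peaks 65.8. Windows that were only partly covered count in full here, which raises the value most for the narrowest peaks. The 5 windows below show which promoter sequence lies under a short peak. Cln3 (lysosomal membrane protein, minus strand, chr7:126585768-126586067) and Cercam (cell adhesion protein, plus strand, chr2:29869244-29869543) were each covered over all 300 bases, at an annotated start in a gene that also has a wider peak. Fbxo44 (F-box protein, minus strand, chr4:148158774-148159073), Mpc1 (subunit of the mitochondrial pyruvate carrier, plus strand, chr17:8284204-8284503) and Mrps10 (mitochondrial ribosomal protein, plus strand, chr17:47368947-47369246) were covered over 245, 223 and 194 bases, and are the most covered windows among protein-coding genes with no wider peak. All are printed 5′ to 3′ along the gene, and capitals mark matches on either strand to the GC box GGGCGG, the CCAAT box, the TATA motif TATAAA and the ETS core CCGGAAG.
Cln3: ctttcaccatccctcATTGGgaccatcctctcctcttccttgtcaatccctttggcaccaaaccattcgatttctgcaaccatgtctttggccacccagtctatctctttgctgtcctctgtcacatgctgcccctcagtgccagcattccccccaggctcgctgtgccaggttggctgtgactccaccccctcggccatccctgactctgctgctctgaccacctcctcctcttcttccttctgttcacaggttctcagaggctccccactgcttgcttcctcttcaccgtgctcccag
Cercam: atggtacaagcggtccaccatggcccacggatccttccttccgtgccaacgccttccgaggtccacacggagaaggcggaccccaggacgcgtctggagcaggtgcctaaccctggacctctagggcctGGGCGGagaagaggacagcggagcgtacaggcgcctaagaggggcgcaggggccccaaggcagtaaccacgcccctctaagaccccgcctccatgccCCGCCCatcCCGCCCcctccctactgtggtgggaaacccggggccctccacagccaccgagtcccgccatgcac
Fbxo44: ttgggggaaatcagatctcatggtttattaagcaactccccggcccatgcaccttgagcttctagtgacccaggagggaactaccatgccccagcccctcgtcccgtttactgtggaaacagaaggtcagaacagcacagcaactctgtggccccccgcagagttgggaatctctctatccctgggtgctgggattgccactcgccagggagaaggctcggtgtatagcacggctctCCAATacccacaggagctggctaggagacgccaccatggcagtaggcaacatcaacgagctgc
Mpc1: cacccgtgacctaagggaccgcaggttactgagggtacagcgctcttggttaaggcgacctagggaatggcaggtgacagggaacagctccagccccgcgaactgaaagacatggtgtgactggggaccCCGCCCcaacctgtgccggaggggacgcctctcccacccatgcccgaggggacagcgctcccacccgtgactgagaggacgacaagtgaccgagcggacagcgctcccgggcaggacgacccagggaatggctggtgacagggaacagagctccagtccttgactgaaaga
Mrps10: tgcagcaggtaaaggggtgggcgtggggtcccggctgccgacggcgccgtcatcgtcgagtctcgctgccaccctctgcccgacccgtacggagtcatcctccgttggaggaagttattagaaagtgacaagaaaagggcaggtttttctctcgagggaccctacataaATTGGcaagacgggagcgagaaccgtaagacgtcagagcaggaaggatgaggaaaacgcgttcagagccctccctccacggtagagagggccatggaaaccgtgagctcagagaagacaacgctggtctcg

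The Cercam window held 3 GC boxes and no CCAAT box, the Mpc1 window held 1 GC box, and Cln3, Fbxo44 and Mrps10 held 1 CCAAT box each. Over all 18 windows of protein-coding genes touched by a short peak, 11 (61.1%) held a CCAAT box and 9 (50.0%) a GC box. Over all 21263 windows of protein-coding genes the shares were 38.2% and 46.2%. Windows under wider DMSO peaks had a CCAAT box in 36.3% and a GC box in 62.0%. TATAAA was found in 1 (5.56%, all windows 12.6%). The ETS core was found in 0 of 18, where all windows had it in 11.6% and windows under wider peaks in 26.2%. Median GC content was 59.5% under short peaks, 61.3% under wider peaks and 56.3% over all windows, with medians of 19.5, 22 and 13 CpG dinucleotides. These are counts of letters in few windows, and the windows were picked for printing after their coverage was seen. Whole windows were counted once 1 base was touched, so a box can lie outside the peak. The Lyrm7 window, with 2 CCAAT boxes, had 13 bases under its peak, and the Vars2 window had 4. Short peaks also covered 1 microRNA hairpin in full: the 79 bases of Mir5103 on the minus strand at chr1:34433121-34433199 lay inside a peak of 288 bases (fold enrichment 3.20). Its mature sequence is given with the seed, bases 2 to 8, in capitals.
mmu-miR-5103: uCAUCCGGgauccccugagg

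The short peaks were also shallow. Their widths ran from 280 bases, the narrowest peak in the DMSO list, to 499, with a median of 367 (interquartile range 320 to 428). Together they covered 0.509 Mb, which is 0.744% of all bases under DMSO peaks. Fold enrichment, the authors' ratio of signal over background within a peak, had a median of 2.84 (interquartile range 2.70 to 3.02). It was 2.88 in middle-width and 3.76 in wide peaks. Of the short peaks, 1305 stayed under 3.5 and 7 reached 4 or more. The deposited −log10 q had a median of 1.29, against 1.37 in middle-width and 3.26 in wide peaks. By that measure 690 short peaks (50.9%) had a q above 0.05, and 165 (12.2%) had a −log10 q of 2 or more, against 56.7% of all DMSO peaks. A block of 104 short peaks carried 1 identical pair of values, fold enrichment 2.60 and −log10 q 1.01. Some middle-width and wide peaks carried the same pair. Since width was the rule and fold enrichment comes from the same list, these values describe the peaks and support nothing.

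**Figure D1:**
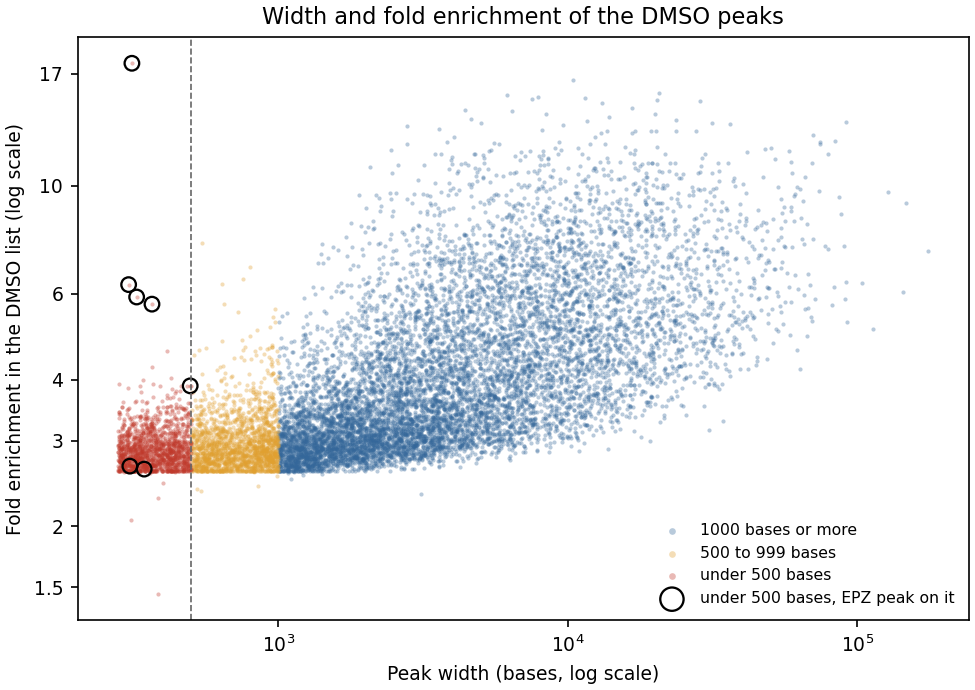
Width in bases against the authors' fold enrichment for all 12578 DMSO peaks, both axes logarithmic, coloured by width class, with the 7 short peaks that carry an EPZ peak circled and the 500-base limit dashed. Most short peaks lie in the same low band as the middle-width peaks (500 to under 1000 bases), and 4 of the circled peaks stand above it between 5.72 and 17.9.

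Within the short class, width said little about height. Fold enrichment had a median of 2.82 in the 559 peaks of 280 to 349 bases, 2.86 in the 436 of 350 to 424 and 2.85 in the remaining 361. Across the 1356 peaks, which share 1 list and its background, the Spearman correlation between width and fold enrichment was 0.06. The limit of 500 bases cut through a continuous range. The 4 peaks of 499 bases lay in Ikzf3, the lymphocyte transcription factor Aiolos, at 2.82, Foxn2, a forkhead factor, at 2.97, Cenpc1, a centromere protein, at 2.95, and Mxd1, a Max-binding repressor of Myc targets, at 3.24. The 2 peaks of 500 bases, just outside, lay in Fam193a at 2.64 and in 2610035D17Rik at 2.99. None of these 6 had an EPZ peak.

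Most short peaks lay in genes, and most often in long genes that carried wider peaks as well. A protein-coding gene was touched by 1251 of 1356 (92.3%, 90.7 to 93.6), against 95.5% of all DMSO peaks. The share was 93.1% for middle-width and 96.4% for wide peaks. Of the 105 others, 32 lay in another annotated gene, among them 20 in long noncoding RNAs, and 73 lay in no annotated gene. The receptor loci held 4 of the 32: at Tcrg, with a peak on the variable segment Trgv6, one on the constant region Trgc2 and one on neither, and at Tcra, with a peak on the segment Trav21-dv12. The 1251 peaks fell in 1045 protein-coding genes, which is 4.77% of the 21900 protein-coding genes and 13.8% of the 7563 (34.5%) with any DMSO peak. In 824 of these genes a wider DMSO peak was present too, and 221 had short peaks only. That last count was 63 when every DMSO peak had to reach a −log10 q of 2. It was 130 when short meant under 400 bases and 312 when it meant under 600. Genes with both kinds had a median length of 64.1 kb, against 20.6 kb for genes with wider peaks only, 19.4 kb for genes with short peaks only and 17.1 kb over all protein-coding genes. Most of the 1045 genes, 878, held 1 short peak, 130 held 2 and 37 held 3 or more.

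Short peaks lay close to wider ones. The median distance from edge to edge to the nearest DMSO peak of 500 bases or more was 3160 bases (interquartile range 1609 to 9646), and 846 short peaks (62.4%, 59.7 to 65.0) had one within 5 kb. The corresponding share was 58.0% for middle-width peaks (median 3559 bases) and 50.7% for wide peaks (median 4740). With a −log10 q of at least 2 required of every peak, the share of short peaks fell to 37.6%. No short peak had a neighbour within 1 kb, because the smallest gap between any 2 peaks of the DMSO list was 1123 bases. In 151 cases the nearest DMSO peak was itself short. Of the 1251 short peaks in protein-coding genes, 1028 (82.2%, 79.9 to 84.3) shared a gene with a wider peak, against 72.8% (1186 of 1630) of the middle-width peaks.

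Within such genes few short peaks preceded the wider ones. Strand was known for 813 short peaks in a gene with a wider peak that could be placed against it. Of these, 432 (53.1%, 49.6 to 56.6) lay 3′ of every wider peak in the gene, 339 (41.7%) lay between wider peaks and 42 (5.17%) lay 5′ of all of them. For middle-width peaks the shares were 47.9%, 46.2% and 5.91% of 964. The centres of the 989 short peaks with strand had a median position 17.1 kb from the gene start, or 31.9% of the gene's length. The median was 13.7 kb for middle-width and 5.74 kb for wide peaks.

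Short peaks at gene starts were mostly those of genes without a wider peak. In genes that also held a wider peak, 14 of 814 short peaks (1.72%, 0.943 to 2.87) were centred in the first 1 kb of the gene, and the median position was 21.3 kb. In genes without a wider peak, 79 of 175 (45.1%, 37.6 to 52.8) were centred there, 143 (81.7%) lay in the first 5 kb, and the median position was 1.17 kb. Fold enrichment differed little between the 2 settings, with medians of 2.83 and 2.90. The contrast in position is partly set by the grouping. DMSO peaks lay at least 1123 bases apart, so a wider peak at a gene start leaves little room for a short one there. By distance, 2.95% of short peaks within 2 kb of a wider peak were centred in the first 1 kb of a gene, 2.52% at 2 to 5 kb, 14.6% at 5 to 50 kb and 40.0% (34 of 85, 29.5 to 51.2) beyond 50 kb. The share for middle-width peaks was 3.51% within 2 kb, 105 of 389 (interval 22.6% to 31.7%) at 5 to 50 kb, above the 14.6% (10.8 to 19.3) of short peaks, and 51.3% beyond 50 kb. Wide peaks ran from 2.68% to 11.7%, but a wide peak that begins at a gene start has its centre farther in. In the first 5 kb of the gene, the shares of short and wide peaks were 18.3% and 23.5% within 2 kb of a wider peak, and 65.9% and 70.1% beyond 50 kb. Between these distances they lay farther apart: 10.4% and 32.8% at 2 to 5 kb, and 26.1% and 62.1% at 5 to 50 kb. The curves of distance and the bars of start positions show both measures for the 3 width classes.

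**Figure D2:**
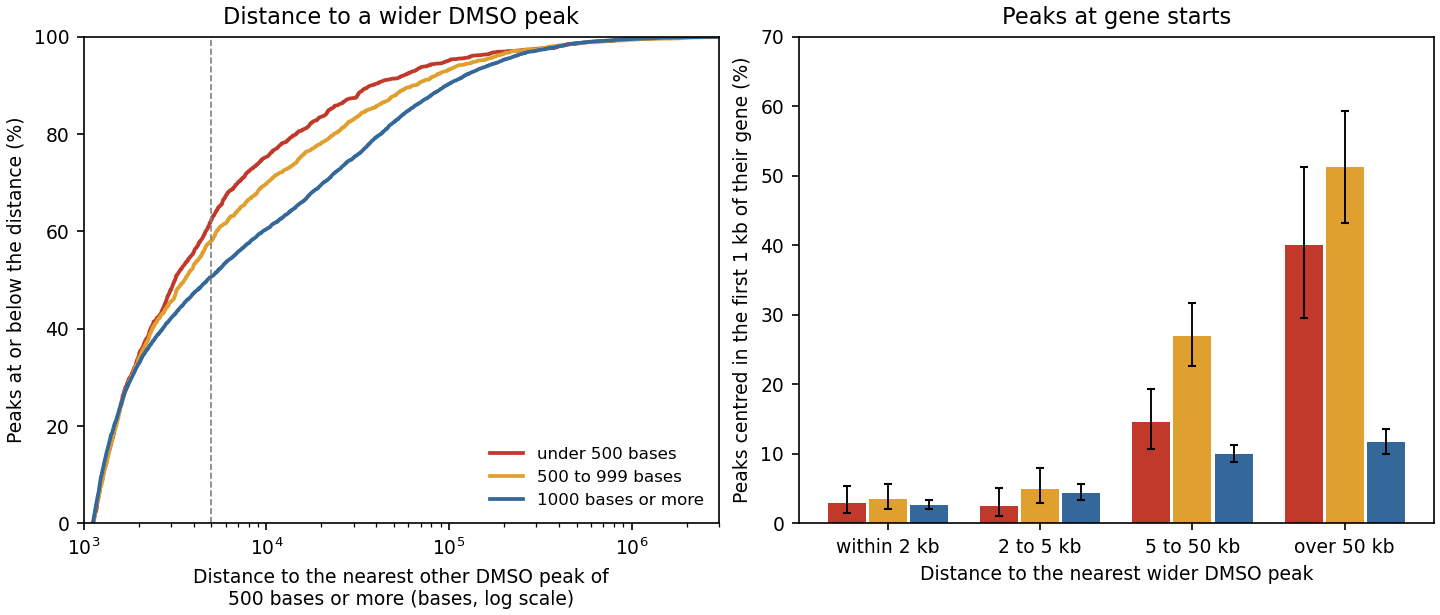
Left, share of DMSO peaks at or below a given distance to the nearest other DMSO peak of 500 bases or more (logarithmic axis, bases), by width class, with 5 kb dashed. Right, share of peaks in stranded protein-coding genes that are centred in the first 1 kb of their gene, by distance to the nearest wider peak; bars are shares and whiskers are exact 95% intervals over peaks. Short peaks rise from 2.95% within 2 kb to 40.0% beyond 50 kb.

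The 9 most isolated short peaks in protein-coding genes were 884 kb or more from any wider peak. Fancf, a member of the Fanconi anaemia DNA repair complex, had a peak of 306 bases at fold enrichment 3.16 (chr7:51861099-51861404) with no wider DMSO peak for 2980 kb. Gnpda2, a glucosamine-6-phosphate deaminase, followed at 2165 kb with 3.23 (chr5:69591865-69592176), and Brwd3, a bromodomain protein, at 1568 kb with 2.60. Manea, a mannosidase of the Golgi, stood at 1446 kb with 2.90. Alg13, a subunit of a glycosyltransferase for N-glycans, stood at 1352 kb with 3.88 (chrX:144318581-144318969). The next 4 were Ubqln2, a ubiquitin-binding shuttle factor, Fbxl17, an F-box protein, Slc39a10, a zinc importer, and Galnt3, a glycosyltransferase, at 1172 down to 884 kb and fold enrichments of 2.68 to 3.13. None of the 9 had an EPZ or SGC peak. Brwd3, Alg13 and Ubqln2 are on the X chromosome, which held 27 of all 1356 short peaks. The Y chromosome held 1, in the RNA helicase gene Ddx3y at 3.53.

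Among the 221 genes with short peaks only, the highest fold enrichment after Ano2, described below, was 3.88. It belonged to Commd2, a COMM domain gene (chr3:57651032-57651516), and to Alg13. Med23, a subunit of the Mediator complex that links transcription factors to RNA polymerase, had 3.84 (chr10:24870445-24870746), and Med9, another Mediator subunit, 3.52 (chr11:59948238-59948637). The zinc finger gene Zfp971 had 3.79, Phlpp2, a phosphatase of Akt, 3.69, and Atxn7l2, an ataxin-7 relative, 3.57. Igbp1, a regulator of protein phosphatase 2A, had 3.54 and Endov, an endonuclease, 3.51. In 7 of these genes (Alg13, Zfp971, Phlpp2, Atxn7l2, Igbp1, Med9 and Endov) the peak centre lay 0.223 to 0.817 kb from an annotated start site. For Commd2 and Med23 no strand was available, so their peaks were not placed against their own starts. An EPZ peak was present anywhere in 1 of the 221 genes (Ano2; 0.452%, 0.0115 to 2.5), against 434 of the 824 with short and wider peaks (52.7%, 49.2 to 56.1) and 3051 of the 6518 with wider peaks only (46.8%, 45.6 to 48.0). The grouping partly sets this contrast. It leaves the 221 genes without any wider DMSO peak, and 3366 of the 3382 DMSO peaks with an EPZ peak were wide. Genes with middle-width peaks only were not counted apart, and gene length was not taken into account.

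At the other end, some long genes held several short peaks. Akap13, a scaffold for protein kinase A, held 7 (chr7:75455526-75754609) at fold enrichments of 2.72 to 3.32. Its 27 wider peaks included 1 of 51.3 kb at 6.75, and 12 EPZ peaks lay in the gene, none on a short peak. Gse1 held 6 at 2.79 to 3.08 (chr8:120228501-120581383), all between 281 and 305 kb from its start and next to 4 wider peaks. Slco3a1, an organic anion transporter, and Ppm1h, a phosphatase, held 5 each. Of the Ppm1h peaks (chr10:122677428-122945795), the 2 nearest its start lay between wider peaks and 3 lay 12500 to 21057 bases beyond the last. Prkca, protein kinase C alpha, Rabgap1l, a Rab GTPase activator, Pitpnm2, a phosphatidylinositol transfer protein, Prdm2, a PR domain gene, Arhgap26, a GTPase-activating protein, and Setbp1, a SET-binding protein, held 4 each. No short peak in these 10 genes had an EPZ peak, while EPZ peaks lay elsewhere in 6 of them: Akap13, Gse1, Slco3a1, Ppm1h, Setbp1 and Prdm2.

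**Figure D3:**
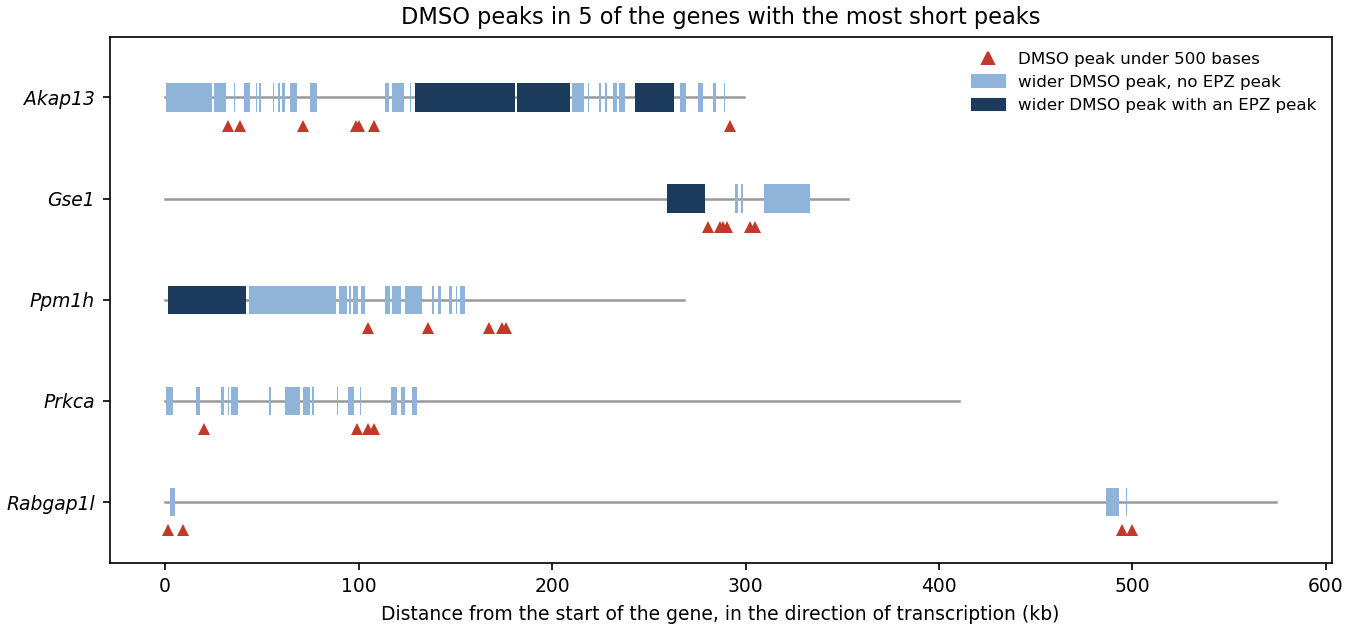
DMSO peaks in 5 of the 10 genes with the most short peaks (the 5 longest of those with known strand), drawn from the start of each gene in the direction of transcription, in kb. Triangles are short peaks, bars are wider peaks, and dark bars are wider peaks with an EPZ peak. The 6 short peaks of Gse1 lie between its wider peaks, and 3 of the 5 in Ppm1h lie beyond the last one.

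The T cell gene lists held short peaks unevenly. In the T cell signalling list 9 of 30 genes (30.0%) had one, each beside wider peaks. Pik3ca, the catalytic subunit of phosphoinositide 3-kinase alpha, had 1 at 3.89 (chr3:32429070-32429531). Rptor, the mTORC1 subunit Raptor, had 2 at 3.37 and 2.68, Akt2, a kinase downstream of PI3K, 1 at 2.96, and Cblb, a ubiquitin ligase that restrains receptor signalling, 2 at 2.85 and 2.70. Prkcq, protein kinase C theta of the immune synapse, had 3 at 2.62 to 2.76 (the last at chr2:11255543-11255863), all 3′ of its wider peaks, of which the widest spans 65.1 kb. Map3k1, a kinase of the MAP kinase cascade, had 1 at 2.74. In the naive and memory list 5 of 18 genes had one: Tcf7, encoding TCF1, at 2.87, Bach2, a repressor that favours memory cells, at 3.52 and 2.96, Foxp1, a quiescence factor, at 2.98 and 2.91, Satb1, a chromatin organiser, at 3.22 and 2.79, and Zeb1, a zinc finger repressor, with 3 up to 3.21. For scale, 13.8% of all DMSO-marked protein-coding genes had a short peak, and gene length was not taken into account in these counts.

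For the remaining lists the same 13.8% of DMSO-marked genes is the scale, and most counts are too small to be set against it. Short peaks were in 0 of 20 cytotoxic effector genes and 0 of 25 cytosolic ribosomal protein genes, although 9 and all 25 of these had a DMSO peak. The T cell receptor and identity list had 1 of 19, Lcp2, the adaptor SLP-76, at 2.60. The homing list had 1 of 15 (14 with any DMSO peak), Itgae, the integrin CD103, at 2.60. Every fold enrichment of 2.60 given here for a short peak in a named gene belongs to the pair of values that 104 short peaks share. Its −log10 q of 1.01 is close to the lowest of the DMSO list, 1.00. Among cytokine receptor and JAK-STAT genes 3 of 25 had one (24 had any DMSO peak): Il6ra, the interleukin 6 receptor, at 3.13, Il12rb2, an interleukin 12 receptor chain, at 2.75, and Stat5a, a transducer of interleukin 2 and 7 signals, at 2.79. The Stat5a peak lay 1.41 kb from the gene start and was its only kind of DMSO peak. Cd160, an inhibitory receptor and the 1 of 15 in its list (7 with any DMSO peak), likewise had short peaks only, at 3.25 and 3.08. The cell cycle list had 4 of 26: Cdk6, a kinase of G1, with 2 at 2.68 and 2.60, Ccnd3, cyclin D3, at 3.18, Rb1, the retinoblastoma protein, at 2.71, and E2f1, a transcription factor of S phase entry, at 2.90.

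Short peaks also lay in genes of DOT1L partners, elongation factors and chromatin modifiers. In the list of DOT1L partners and elongation complexes 8 of 26 had one (30.8%), and 24 of the 26 had any DMSO peak. The share among all DMSO-marked genes was 13.8%. Gene length was not taken into account: Mllt3 and Aff3 span 263 and 455 kb. Supt16, a subunit of the histone chaperone FACT, had 3.52 (chr14:52168729-52169113), and Aff1, a scaffold of the super elongation complex, 3.12. Mllt3, encoding AF9, had 3 at 2.60 to 2.92, all 5.11 to 13.7 kb from the gene start and between wider peaks. Mllt1, encoding ENL, had 1 at 2.83, Mllt6, encoding AF17, 2 at 2.88 and 2.66, and Ell, an elongation factor, 1 at 2.87. Aff3, named after its value was seen, had a short peak only, at 2.65. Chromatin modifier genes had one in 6 of 30 (28 with any DMSO peak): Ezh2, the H3K27 methyltransferase, Kdm5a, an H3K4 demethylase, Kmt2e, an H3K4 methyltransferase family member, Dnmt1 and Dnmt3a, the DNA methyltransferases, and Tet2, a 5-methylcytosine oxidase, at 2.60 to 3.17. The ubiquitin list had 4 of 20 (19 with any DMSO peak), led by the ligase gene Huwe1 at 3.65, 0.940 kb from the gene start, with Usp34, Itch and Fbxw11 at 2.93, 2.88 and 2.60. The splicing list had 2 of 20, Sf3b1 at 2.73 and Ptbp3 at 2.69. Of the lists for other cell types, 1 of 11 CD4 and regulatory T cell genes had one, Cxcr5, the follicular homing receptor, with a short peak only at 2.60. None lay in B cell, NK cell receptor, myeloid or non-hematopoietic genes, of which 1 of 11, 5 of 11, 0 of 13 and 0 of 15 had any DMSO peak, so these lists say little about short peaks. No short peak in any of the 18 lists had an EPZ or SGC peak on it.

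After DOT1L inhibition almost no short peak position was called again. An EPZ peak overlapped 7 of 1356 short peaks by at least 1 base (0.516%, 0.208 to 1.06), against 26.9% of all DMSO peaks. The count was 9 of 1750 (0.514%) for middle-width and 3366 of 9472 (35.5%) for wide peaks. A wider peak offers more bases for an overlap of 1 base. Median widths were 367, 736.5 and 3656.5 bases in short, middle-width and wide peaks. An SGC peak overlapped 3 short peaks (0.221%, 0.0456 to 0.645), against 0.334% of all DMSO peaks, in a list of only 55 peaks. Among the 165 short peaks with a −log10 q of 2 or more, the shares were 3.03% for EPZ and 1.82% for SGC. An absent peak means that none was called. The depth of the lists is unknown, and fewer cells with the mark and less of the mark per cell cannot be told apart in such bulk material.

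Fold enrichment moved with width, so the shares were also set side by side within classes of DMSO fold enrichment. Between 2.5 and 3, an EPZ peak lay on 2 of 986 short peaks (0.203%), 3 of 1125 middle-width peaks (0.267%) and 3 of 1871 wide peaks (0.160%), with overlapping intervals. Between 3 and 4, the counts were 1 of 359 short peaks (0.279%, 0.00705 to 1.54), 2 of 563 (0.355%) and 124 of 3383 (3.67%, 3.06 to 4.35), and the intervals of short and wide peaks did not overlap. At 4 or more, the counts were 4 of 7 short peaks (57.1%, 18.4 to 90.1), 4 of 59 (6.78%) and 3239 of 4217 (76.8%). The share of short peaks in this class was 33.3% (4 of 12) with a limit of 600 bases and 80.0% (4 of 5) with 400. Width still differed within a class: its medians were 370, 742 and 2888 bases at 3 to 4, and 366, 844 and 7362 bases at 4 or more. An overlap of 1 base thus had more room on wide peaks. The difference between the classes was not tested, because peaks of 1 list are not replicates.

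**Figure D4:**
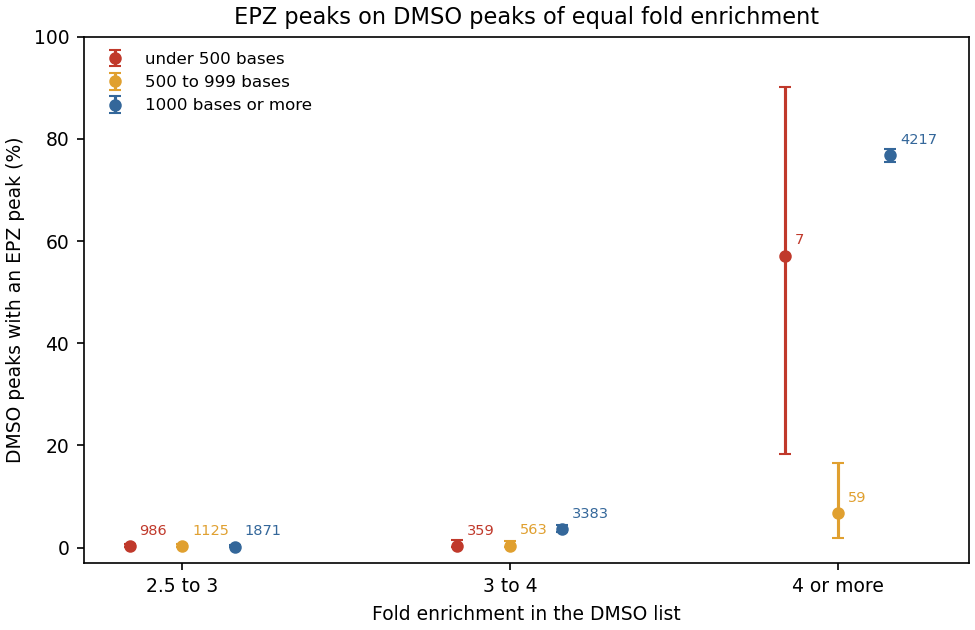
Share of DMSO peaks with an EPZ peak on them (percent), by class of DMSO fold enrichment and by width class; points are shares, whiskers are exact 95% intervals over peaks, and the numbers are the peaks in each class. All 3 width classes lie under 1% between 2.5 and 3, and the 7 short peaks of 4 or more have an interval from 18.4% to 90.1%.

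The 7 short peaks with an EPZ peak fell into 2 kinds. In 4 of them, which were also the 4 short peaks of highest fold enrichment, the EPZ peak was also under 500 bases, and 3 had such an SGC peak as well. The highest, on chromosome 18 (chr18:65427479-65427790, 312 bases, in no annotated gene), had a DMSO fold enrichment of 17.9 and −log10 q of 49.07, the highest fold enrichment of the whole DMSO list. Its EPZ peak of 303 bases began 7 bases later and ended 2 earlier, at 12.1 in its own list. Its SGC peak of 311 bases had 13.0, rank 1 of the 55 SGC peaks. A wider DMSO peak lay 3.07 kb away. The second, in the long noncoding RNA gene Gm34259 (chr17:4626282-4626585), had 6.27 in the DMSO list, 8.14 in the EPZ list and 3.62 in the SGC list. Its EPZ peak of 423 bases began 116 bases earlier and its SGC peak of 232 bases began 66 bases later, with the nearest wider DMSO peak 366 kb away. The third, in Ano2, a calcium-activated chloride channel known from sensory neurons (chr6:125876916-125877239), had 5.91, 6.55 and 5.73, with EPZ and SGC edges within 4 bases of the DMSO edges and no wider DMSO peak for 519 kb. The fourth, in Prkdc, the catalytic subunit of the DNA-dependent protein kinase of end joining and V(D)J recombination (chr16:15642487-15642852), had 5.72 in the DMSO list and 3.32 in an EPZ peak that began at the same base and ended 1 base earlier, and no SGC peak.

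In the other 3, a wider EPZ peak ran over a weaker short peak. At Acpp, an acid phosphatase (chr9:104336581-104337076), the short peak of 496 bases at 3.89 lay inside an EPZ peak of 1473 bases at 3.23, while a wider DMSO peak of 2783 bases 1.21 kb away had no EPZ peak. At Trav21-dv12 in the T cell receptor alpha locus (chr14:53875982-53876288), a short peak at 2.66 lay inside an EPZ peak of 1773 bases at 3.45. At Trgc2 in the gamma locus (chr13:19306642-19306985), a short peak at 2.62 lay inside an EPZ peak of 4562 bases at 3.58, which also covered the wider DMSO peak 1.53 kb away. Fold enrichment is the authors' value within each list, and depth and background of the lists are unknown, so no change in level is read from it.

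**Figure D5:**
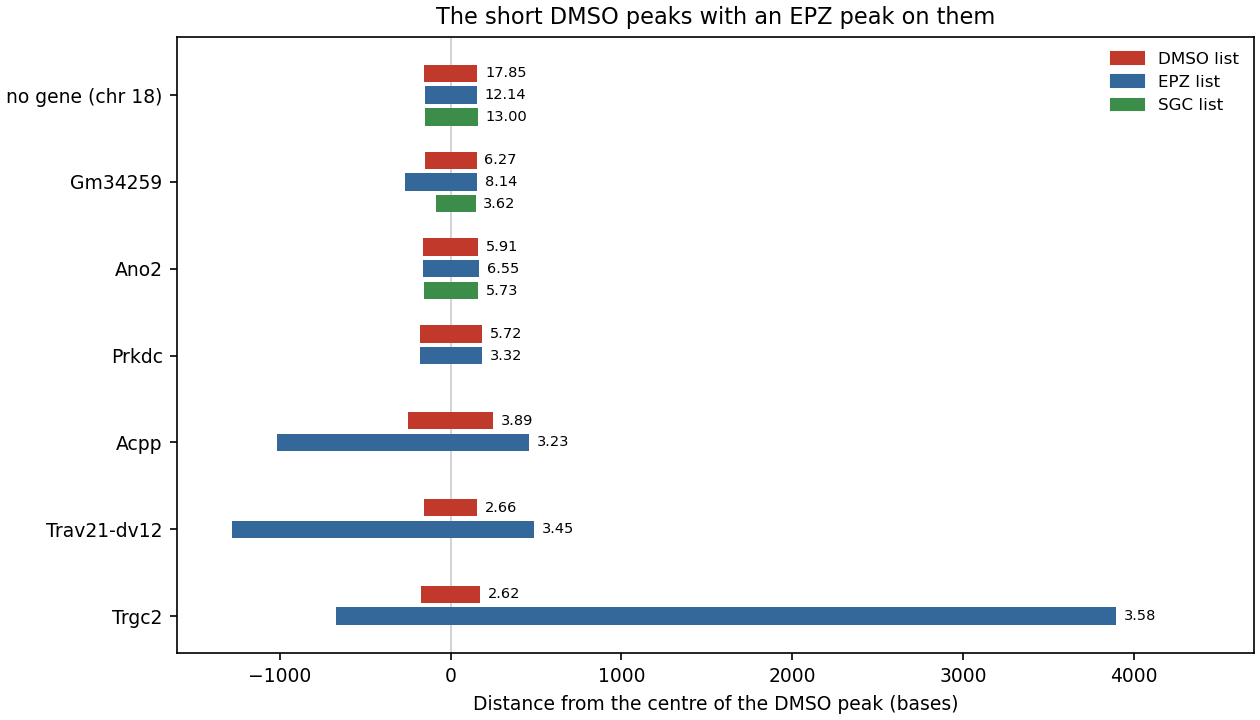
The 7 short DMSO peaks with an EPZ peak, drawn as distance in bases from the centre of the DMSO peak; bars are the DMSO, EPZ and SGC peaks and the figures beside them are the authors' fold enrichment in each list. Edges differ by at most 7 bases in the chromosome 18, Ano2 and Prkdc peaks and by up to 116 in Gm34259, and in the lower 3 the EPZ bar runs past the DMSO bar on both sides.

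The next short peaks by fold enrichment had no EPZ peak. Dhx35, a DEAH-box helicase, had 4.59 (chr2:158795103-158795513), and the noncoding RNA gene Gm34894 and the pseudogene 6820431F20Rik had 4.24 and 4.03. Sik2, a salt-inducible kinase, had 3.99, Ino80, the ATPase of a chromatin remodeller, 3.93 with an EPZ peak 1502 bases away, and a peak over Cdc37l1 and Ak3 3.92. The lowest values went the other way: a peak in no gene at chr9:3024090-3024474 had a fold enrichment of 1.45 with a −log10 q of 17.0, and another at chr16:3351126-3351434 had 2.06 with 3.24. In these 2 the rank by fold enrichment and the rank by q differ, whereas over all 1356 short peaks, which share 1 list, the Spearman correlation between fold enrichment and −log10 q was 0.94.

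The wider neighbours of short peaks carried EPZ peaks at a share close to that of other wider peaks. The 810 distinct wider peaks that were nearest to a short peak within 5 kb carried an EPZ peak in 218 cases (26.9%, 23.9 to 30.1), against 3157 of the 10412 other wider peaks (30.3%, 29.4 to 31.2), with intervals that overlap narrowly. Their median fold enrichment was 3.32 against 3.53 and their median width 2724 against 2903 bases. Between fold enrichments of 2.5 and 3 the shares were 0.769% (2 of 260) and 0.146% (4 of 2736). From 3 to 4 they were 3.41% (10 of 293) and 3.18% (116 of 3653). Between 4 and 6 they were 65.0% (91 of 140, 56.5 to 72.9) and 61.6%, and at 6 or more 99.1% and 98.7%. The intervals overlapped in each of these classes. Seen from the inhibitor lists, 415 of 4443 EPZ peaks (9.34%) were under 500 bases. Of these, 405 (97.6%) lay on wide DMSO peaks, 3 on middle-width, 4 on short DMSO peaks and 3 on none. Among the 15 SGC peaks under 500 bases, 11 lay on wide DMSO peaks, 1 on a middle-width peak and 3 on short ones.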

How the data were processed

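The authors deposited 1 list of broad peaks per treatment. Per the submitters' processing notes, MACS2 2.2.7.1, BWA 0.7.17-r1188 and Picard were used with the builds mm10 (GRCm38) and sacCer3. Calling thresholds, how replicates were combined, and any use of inputs or yeast reads were not given in the sources used here. Read depth is unknown, so weak regions may have gone uncalled. The deposited fold enrichment is the authors' ratio over background, averaged over a peak, and the deposited −log10 q values are likewise theirs. The deposited score column was not used.

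The members and the 18 gene lists (350 genes) were chosen with earlier results of these data known. Overlap meant at least 1 shared base and distances ran from edge to edge. Genes came from a RefSeq table (GRCm38.p6, the build of the peaks). Strand and start sites came from the RefSeq promoter table, which holds 17492 of 21900 protein-coding genes and none on chromosome 18, and analyses using it were added after the data were seen. Exons and introns were not used here. Genes were named by rule: 10 short peaks of highest fold enrichment, all with an inhibitor peak, the 10 in genes farthest from a wider peak, the 10 genes of highest fold enrichment with short peaks only, the 10 with most short peaks, and members of each list with a short peak, to a limit of 6. Widths at the threshold were also named. One result that the rule named is not reported here. The scripts (Python 3.11.15, pandas 2.3.3, scipy 1.17.1) were tested on simulated peaks. With 1 list per treatment there was no test across replicates. Alternatives were the −log10 q minimum, the width limit, the overlap, the distance and the gene definition.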

Additional observations from a re-analysis of the deposited data

How the results depend on the processing

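No paired analysis was possible because each treatment has 1 pooled peak list, and for the same reason no replicate could be left out. With a −log10 q of at least 2 required of every DMSO peak, 165 short peaks remained: 90.3% lay in a protein-coding gene, 58.4% of those shared it with a wider peak, 37.6% had a wider peak within 5 kb, 3.03% had an EPZ peak and 1.82% an SGC peak, and 63 genes had short peaks only. In the fold enrichment class of 2.5 to 3 this left 1 short peak, which had no EPZ peak (0 of 1, interval 0% to 97.5%), too few to read a share from. With a limit of 400 bases there were 861 short peaks and 130 genes with short peaks only, and 0% of the class of 3 to 4 had an EPZ peak. Counting any annotated gene gave 94.6% in a gene. With wider peaks defined as 1000 bases or more, 79.5% shared a gene and 54.6% had a wider peak within 5 kb. The share with a wider peak within 1 kb was 0% and within 10 kb 75.3%. With a limit of 600 bases there were 1765 short peaks and 312 genes with short peaks only. That limit, and an overlap of at least 50%, kept every share recomputed under them within its interval. The comparisons by class of fold enrichment under other limits were added after the data were seen. A −log10 q minimum drops most short peaks and also some wider peaks, and why the shares changed under it was not tested. Depth is unknown, so a missing EPZ or SGC peak sets no limit on the mark there.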
